A study of Homo sapiens with 8 samples.

Results

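MALAT1 is a long noncoding RNA that stays in the nucleus and gathers in nuclear speckles, the bodies where splicing factors are stored. The peaks described here are all those on the plus strand that overlapped MALAT1 in hg19, on chromosome 11 from 65265233 to 65273940, a length of 8708 nt. The members were chosen by these deposited positions, so their presence and number describe the RNA and test nothing. Of the 266317 peaks in the 5 deposited lists, 112 met this rule. They were 20 of 118434 peaks from PTB crosslinked with UVC, 61 of 83725 from PTB crosslinked with UVA and 17 of 58213 from a published PTB iCLIP study. The controls gave 4 of 3809 peaks for PTB without UV and 10 of 2136 for YFP crosslinked with UVC.

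MALAT1 is among the most abundant nuclear RNAs of many human cell types. Its 3′ end is not made by ordinary polyadenylation: RNase P cuts the transcript there and frees a small tRNA-like RNA, and a folded, A-rich stretch then protects the end. PTB (polypyrimidine tract binding protein) is a mainly nuclear protein that binds pyrimidine-rich RNA and is best known for holding back alternative exons. YFP, yellow fluorescent protein, has no known RNA target and serves as a control for RNA that sticks to the tag or beads.

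The cells were 293T, a line from human embryonic kidney, carrying either a Halo-PTB or a Halo-YFP transgene and grown in puromycin. The Halo tag forms a covalent bond with its ligand on magnetic beads, so that the protein and its RNA can be washed hard, and the libraries followed an iCLIP design, in which RNA bound to a protein is copied and sequenced. Halo-PTB cells were crosslinked with UVC, crosslinked with UVA or left without UV, and Halo-YFP cells were crosslinked with UVC, with 2 samples in each of these 4 groups. UVA crosslinking is usually done with a photoreactive nucleoside fed to the cells, and the labels name none. The labels give neither the transgene's promoter nor whether each line was 1 clone, and they do not name the cells of the published study. They name more than 1 sequencing platform without tying a library to either. Each group had 1 peak list without replicate names, so no spread between replicates could be given, no difference between conditions was tested, and sequencing depth is unknown. Each peak carries a score from the authors' peak calling that rises as its p-value falls and was limited to 1000. Scores order the peaks of 1 list and cannot be read as binding strength across lists.

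The UVA list held the most peaks on MALAT1 and covered the most of it. Peaks that lay within 20 nt of each other were merged into sites, because 24 of the UVA peaks began where the previous one ended. This gave 16 UVC, 31 UVA and 16 iCLIP sites, against 4 sites without UV and 8 with YFP. UVC peaks covered 909 nt, or 10.4% of the RNA, UVA peaks 2080 nt (23.9%) and iCLIP peaks 890 nt (10.2%). The peaks without UV covered 188 nt (2.16%) and the YFP peaks 590 nt (6.78%). In all, 2599 nt (29.8%) lay in at least 1 PTB list. No list held a peak on the minus strand over the same interval, and none held a plus-strand peak within 10 kb on either side. The UVC, UVA and iCLIP lists therefore placed their signal inside the annotated RNA and on its strand, as did both controls.

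**Figure D1:**
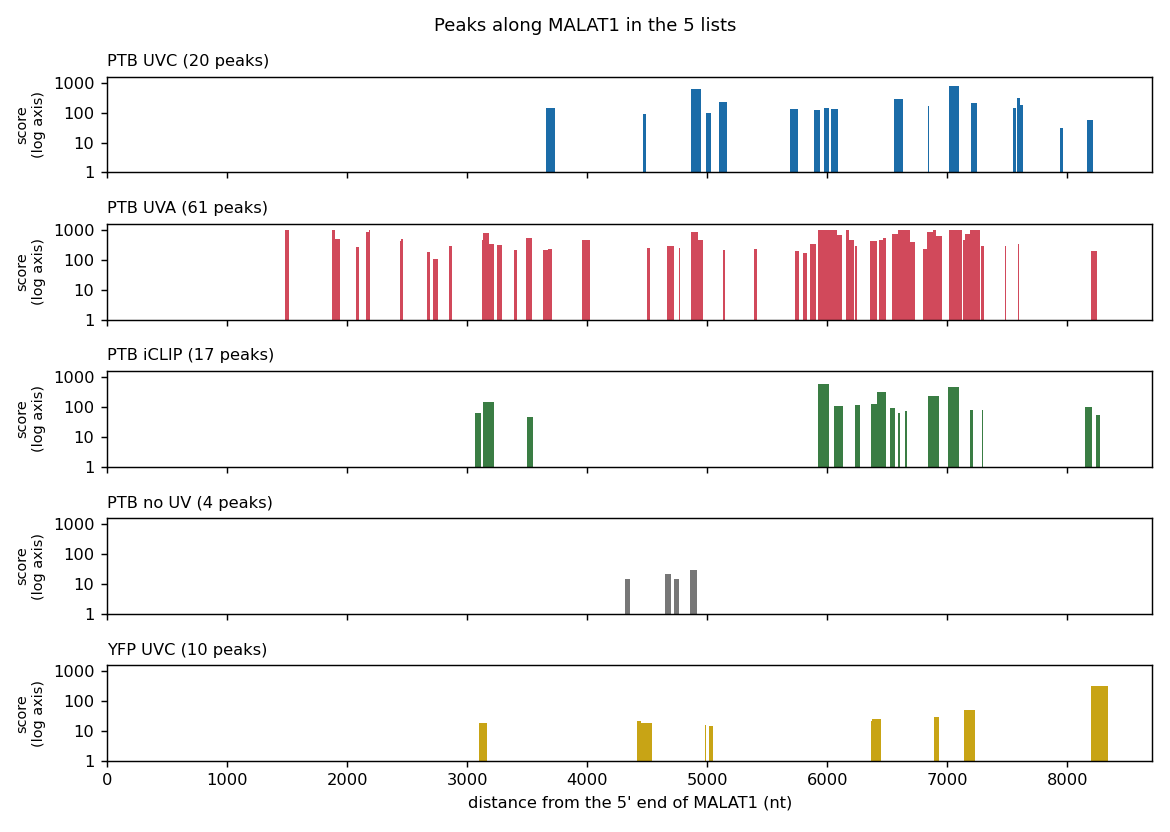
Each bar is 1 peak at its place along MALAT1 (distance from the 5′ end in nt), with its width to scale and its deposited score as height on a log axis. From top to bottom the lists are PTB UVC, PTB UVA, PTB iCLIP, PTB no UV and YFP UVC, and bars at 1000 sit at the score limit. UVA peaks begin at nt 1479, while the first peak of any other list begins at nt 3062.

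The order of the lists was not that of their total sizes. Over the whole genome the UVC list had 1.41 times as many peaks as the UVA list, and on MALAT1 it had 0.328 times as many (0.516 times by sites and 0.437 times by nucleotides covered). The UVA list had 1.44 times as many peaks as the iCLIP list over the genome and 3.59 times as many on MALAT1, or 1.94 times by sites. As a share of its own list, MALAT1 held 0.0169% of UVC peaks (exact 95% interval 0.0103 to 0.0261), 0.0729% of UVA peaks (0.0557 to 0.0936) and 0.0292% of iCLIP peaks (0.0170 to 0.0468). It held 0.105% of the peaks without UV (0.0286 to 0.269) and 0.468% of the YFP peaks (0.225 to 0.859). All intervals here reflect counting error alone, and touching peaks are not independent counts. These shares were not compared by a test, since MALAT1 was chosen with its peaks known and each list is a single pooled one. The UVC list had 2 times as many MALAT1 peaks as the YFP list, where over the genome the ratio was 55.4. For UVA the ratios to YFP were 6.10 on MALAT1 and 39.2 over the genome. Against PTB without UV, the ratios on MALAT1 and over the genome were 5 and 31.1 for UVC, and 15.25 and 21.98 for UVA. How far these ratios follow depth or the abundance of MALAT1 was not tested.

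**Figure D2:**
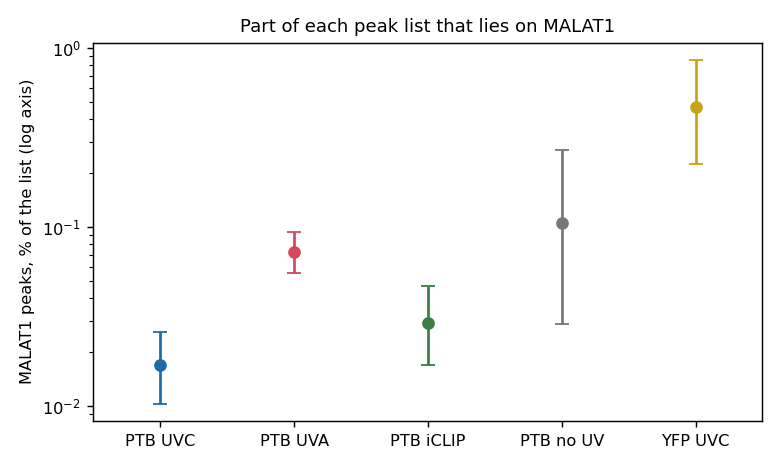
Points give MALAT1 peaks as a percentage of all peaks of each list, on a log axis, and bars are exact 95% intervals for counting error. YFP UVC sits highest at 0.468% and PTB UVC lowest at 0.0169%.

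MALAT1 was also among the densest stretches of its length in these lists. The genome was cut into windows of 8708 nt on each strand without regard to transcripts, while MALAT1 was counted on its own interval. Another dense transcript could thus be split between windows, which can lower its count and favours MALAT1 in these ranks. At least as many UVC sites as on MALAT1 were found in 6 of 44688 other windows that held a UVC site, and at least as many UVA sites in 1 of 30032. For iCLIP this was so in 5 of 25170 windows, for PTB without UV in 7 of 2195 and for YFP in 2 of 987. No other window reached MALAT1's number in all 3 PTB lists at once, and 2 windows reached it in both controls. MALAT1 was chosen with its density known, so these ranks describe it and do not test it.

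The 3 windows whose 5 site numbers were most like those of MALAT1 differed from it by 5.21 to 6.23, the sum of the 5 absolute log2 differences after 0.5 site was added, among 3647 windows with at least 10 sites. On chromosome 1 from 245016997 to 245025704 (minus strand) there were 9 UVC, 17 UVA and 8 iCLIP sites, with 2 without UV and 2 with YFP. On chromosome 11 from 65196797 to 65205504 (plus) there were 24 UVC, 20 UVA and 40 iCLIP sites, with 2 without UV and 1 with YFP. On chromosome 11 from 62619229 to 62627936 (minus) there were 7, 11 and 7 PTB sites in the same order, with 1 without UV and 4 with YFP. None of these windows held as many YFP sites as MALAT1, and none as many UVA sites.

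The scores of MALAT1 peaks were high within the UVC, UVA and iCLIP lists. Within the controls their medians, 18.5 without UV and 21.5 with YFP, lay close to the list median of 17. UVC peaks scored 30 at the lowest, 145.5 at the median and 792 at the highest, where the median of the whole UVC list was 19. UVA peaks ran from 109 through a median of 482 to the limit of 1000, against 92 for their whole list. The iCLIP peaks ran from 48 through 97 to 589, against 47. Every MALAT1 peak of these 3 lists thus scored above the median of its own list, which 50.9% of UVC, 50.1% of UVA and 50.7% of iCLIP peaks reached over the whole lists. Scores above 100 were found in 16 of 20 UVC peaks (1.93% of the whole list), 61 of 61 UVA peaks (47.3%) and 8 of 17 iCLIP peaks (24% of the whole list). The score limit was reached by 16 UVA peaks on MALAT1 (3.36% of the whole list) and by none of the UVC (0.217%) or iCLIP peaks (0.455%).

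The 4 peaks without UV scored 15, 15, 22 and 29. The YFP peaks scored from 15 to 50, with a median of 21.5 over all 10, apart from 1 peak near the 3′ end that scored 330. The whole control lists each had a median of 17, which 2 of 4 peaks without UV (56.1% of the list) and 8 of 10 YFP peaks (55.9%) reached. No control peak on MALAT1 reached the score limit, as 0% of all peaks without UV and 3.98% of all YFP peaks did. Scores above 100 were found in 0 of 4 peaks without UV (1.39% of the list) and in 1 of 10 YFP peaks (13.4% of the list).

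**Figure D3:**
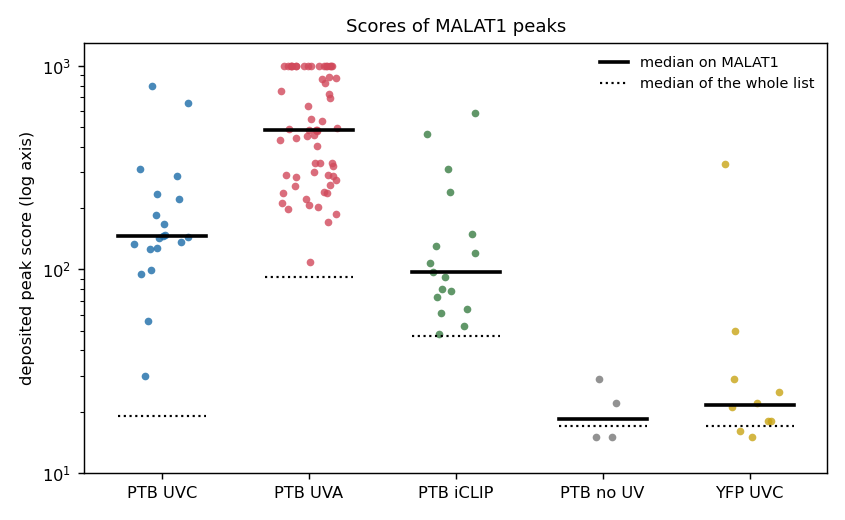
Each point is 1 MALAT1 peak with its deposited score on a log axis, spread sideways only to show overlapping points. Solid bars are medians on MALAT1 and dotted bars medians of whole lists: for PTB UVA these are 482 and 92, for PTB no UV 18.5 and 17.

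Signal was uneven along the RNA. No list held a peak in the first 1478 nt or the last 369 nt of the interval. Where the RNase P cut falls within the interval was not checked, so how much of the last stretch belongs to the mature RNA is open. In every list the median covered nucleotide lay 3′ of the midpoint of the RNA, at nt 6005 for UVC, 5974.5 for UVA, 6412.5 for iCLIP and 6427.5 for YFP. Without UV it lay nearest to the midpoint, at nt 4722.5. When the RNA was cut into 10 equal parts from its 5′ end, parts 7 and 8 held 33.6% of the UVC, 43.1% of the UVA and 55.8% of the iCLIP coverage. They held none of the coverage without UV and 22.4% of that with YFP. The part most covered by UVA and iCLIP was part 8, nt 6097 to 6966, of which UVA peaks covered 67.2% and iCLIP peaks 41.8%. UVC peaks covered 10.5% of it and reached their highest cover, 26.5%, in part 6.

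**Figure D4:**
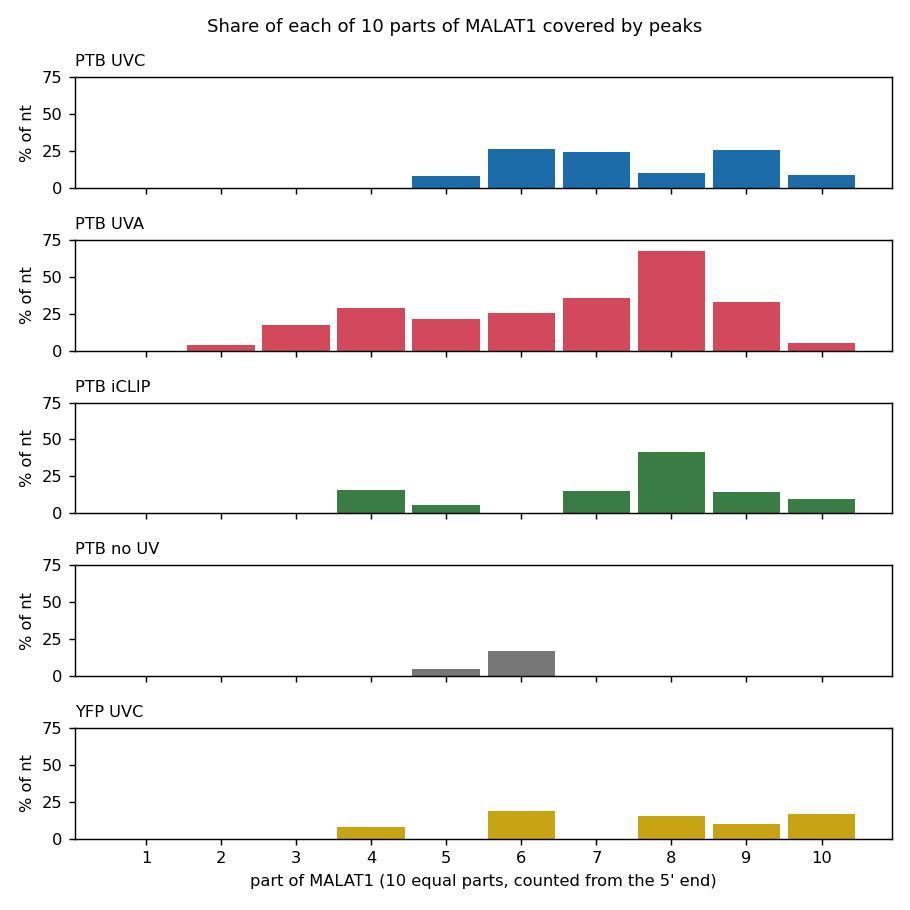
Bars give the percentage of each of 10 equal parts of MALAT1, counted from the 5′ end, that peaks of a list cover, with PTB UVC, PTB UVA and PTB iCLIP above the controls PTB no UV and YFP UVC. UVA and iCLIP both stand highest in part 8 (67.2% and 41.8%), and only UVA has cover in parts 2 and 3.

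Only UVA sites lay in the 5′ stretch, here the RNA before nt 3062. That bound is the start of the first site of any other list, so this holds by definition. The first 4 parts held 11 UVA sites and 2 iCLIP sites, and no UVC site. They also held 1 YFP site and no site without UV. Between nt 1479 and nt 2873 lay 8 UVA sites, made of 12 peaks over 279 nt, and no site of any other list began before nt 3062. The top scores of these 8 sites ran from 109 to the limit, which 3 of them reached. Those 3 were on chromosome 11 from 65266711 to 65266746 (nt 1479 to 1514), from 65267103 to 65267169 (nt 1871 to 1937) and from 65267391 to 65267421 (nt 2159 to 2189). The first of them was 1548 nt from the nearest site of any other list. All 8 thus scored above 92, the median of the whole UVA list.

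In nt 5889 to 8209, 7 UVC sites each met both a UVA and an iCLIP site. That is 7 of 16 UVC sites on MALAT1 (43.75%, exact 95% interval 19.8 to 70.1), and over the whole UVC list 3.57% of sites did so. Counted from the other lists, the shared sites were 5 of 31 UVA sites (4.38% of the whole list) and 8 of 16 iCLIP sites (5.66% of the whole list), because some sites of 1 list spanned several of another. The nucleotides in all 3 PTB lists numbered 226, of which 25 also lay in a control peak.

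The UVC site with the highest score, 792, was on chromosome 11 from 65272244 to 65272329 (nt 7012 to 7097). An iCLIP peak that scored 464, from 65272239 to 65272326, matched it to within a few nucleotides at both ends, and 82 nt lay in all 3 lists. UVA peaks at this place reached the score limit within a wider site from 65272245 to 65272534, and neither control had a peak on the UVC site. Farther 3′ the wider UVA site met a YFP peak, from 65272374 to 65272459. This was the longest run of nucleotides common to the 3 PTB lists on MALAT1.

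The iCLIP peak with the highest score, 589, was on chromosome 11 from 65271154 to 65271247 (nt 5922 to 6015). It met 2 UVC sites, from 65271121 to 65271170 with a score of 127 and from 65271202 to 65271318 with a top score of 148. A single UVA site of 7 peaks, from 65271090 to 65271354, spanned both and reached the limit. The later UVC site also met the next iCLIP peak, from 65271290 to 65271364, with a score of 107. The lists thus divided the same ground into different intervals, and no control peak lay on these UVC sites.

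Of the remaining shared UVC sites, 2 met no control. The one from 65271786 to 65271864 (nt 6554 to 6632) scored 287 in UVC, reached the limit in UVA and met 2 iCLIP peaks with scores of up to 92. The one from 65272067 to 65272078 (nt 6835 to 6846) was 12 nt wide and scored 168 in UVC, 875 in UVA and 239 in iCLIP. The iCLIP peak and the UVA site that it met did reach a YFP peak, from 65272117 to 65272164, beyond the UVC site. The other shared UVC sites themselves lay on a YFP peak. From 65272425 to 65272478 (nt 7193 to 7246), scores were 222 in UVC, the limit in UVA, 80 in iCLIP and 50 in YFP. From 65273393 to 65273441 (nt 8161 to 8209), scores were 56 in UVC, 203 in UVA, 97 in iCLIP and 330 in YFP. Each of these scores is to be read within its own list only. At this last place the YFP list had its highest score on MALAT1, while the UVC list had a lower score at 1 peak only, that of 30.

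The agreement of the PTB lists differed with the list it was counted from. Of the 17 iCLIP peaks on MALAT1, 16 overlapped a UVA peak (94.1%, exact 95% interval 71.3 to 99.9), where 25.9% of the whole iCLIP list did. The remaining one, from 65268294 to 65268346 (nt 3062 to 3114), lay on a YFP peak. From the UVA side, 23 of 61 peaks (37.7%, interval 25.6 to 51.0) overlapped an iCLIP peak, against 20.4% of the whole UVA list. Of the 20 UVC peaks, 14 overlapped a UVA peak (70%, interval 45.7 to 88.1), where 9.61% of the whole UVC list did, and 8 an iCLIP peak (40%, interval 19.1 to 63.9), where 5.45% did. In the other direction 22 of 61 UVA peaks overlapped a UVC peak (36.1%, interval 24.2 to 49.4, and 13.6% of the whole list). Of the 17 iCLIP peaks 8 overlapped a UVC peak (47.1%, interval 22.98 to 72.2, and 9.59% of the whole list). For these peak counts each interval lay above the share of the whole list. For UVA peaks in the iCLIP list this depended on counting touching peaks and peaks on a control: by merged sites it was 9 of 31 (29.0%, interval 14.2 to 48.0), and without peaks on a control 13 of 48 (27.1%, interval 15.3 to 41.8), with shares of 18.95% and 20.2% over the list inside these intervals. For the other directions named here the interval stayed above the share of the list in both settings. Setting intervals beside list shares, here and for the controls below, describes MALAT1 and is no test. MALAT1 was chosen with its peaks known, and neighbouring peaks are not independent.

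Since MALAT1 peaks scored high and high-scoring peaks met other lists more often, the same shares were taken over all peaks of a list that scored at least as high as its lowest MALAT1 peak, with this lower bound set once the scores were known. The share of UVC peaks in the UVA list was then 21.2% over the list, beside 70% on MALAT1, and that in the iCLIP list 11.3%, beside 40%. The share of iCLIP peaks in the UVA list was 32.8%, beside 94.1%, and in the UVC list 14.3%, beside 47.1%. For UVA peaks met by UVC it was 21.5%, beside 36.1%. For UVA peaks met by iCLIP it was 31.6%, which lay inside the interval of the 37.7% on MALAT1. This bound did not make UVC and UVA scores alike. Of the 23916 UVC peaks kept, 2280 scored above 100, beside 16 of 20 on MALAT1. Of the 37696 UVA peaks kept, 2817 were at the limit, beside 16 of 61. For iCLIP, 13964 of the 29074 peaks kept scored above 100, beside 8 of 17. How much of the remaining gaps follows score was not tested. How much of each share follows the dense cover of the RNA was not tested: UVA peaks covered 23.9% of its nucleotides, and 62.0% of the UVC and 76.2% of the iCLIP nucleotides lay under them. UVC and iCLIP peaks, which covered 10.4% and 10.2% of the RNA, had 264 nt in common, 29.0% of the UVC and 29.7% of the iCLIP nucleotides.

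**Figure D5:**
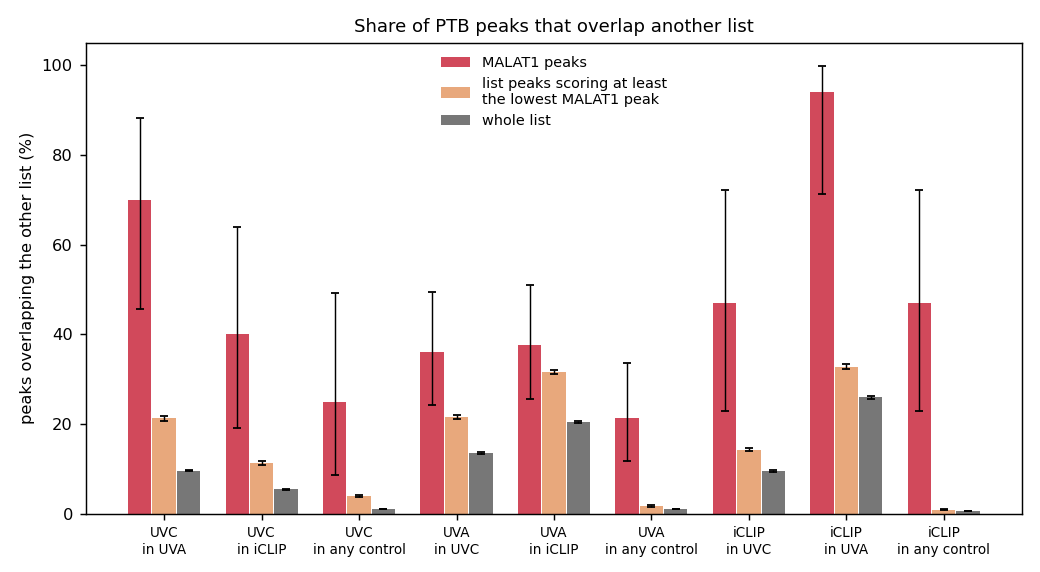
Bars give the percentage of PTB peaks that overlap the list named second by at least 1 nt on the same strand: peaks on MALAT1, all peaks of the list that score at least as high as its lowest MALAT1 peak, and the whole list. Error bars are exact 95% intervals for counting error, and the MALAT1 bar is the highest of each group of 3, from 21.3% (UVA in any control) to 94.1% (iCLIP in UVA).

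Most of the sites found in 1 list only on MALAT1 were UVA sites. On MALAT1, 15 of 31 UVA sites met no site of any other list, against 2 of 16 UVC and 0 of 16 iCLIP sites. Over the whole lists 72.6% of UVA, 85.7% of UVC and 70.8% of iCLIP sites met no other list, so sites of 1 list only were a smaller part of each list on MALAT1. Besides the 8 in the 5′ stretch, 7 such UVA sites lay farther 3′, and their top scores ran from 171 to 480, short of the limit. Of the 31 UVA sites, 14 met a UVC or iCLIP site, all of them among the 23 that lay 3′ of that stretch. The stretch was bounded by the first site of any other list, so its 8 sites could meet none. UVA sites that met both other PTB lists were wide, from 46 to 290 nt with a median of 195 nt, and those that met neither were narrow, from 9 to 72 nt with a median of 29 nt. A wide site has more room to meet another one. The 2 UVC sites found in no other list were the 4 nt from 65272670 to 65272673 (nt 7438 to 7441), with a score of 126, and the 28 nt from 65273169 to 65273196 (nt 7937 to 7964), with a score of 30, the lowest UVC score on the RNA. By sites that met neither other PTB list, the counts were 4 of 16 for UVC (86.1% of the whole list), 17 of 31 for UVA (72.8%) and 1 of 16 for iCLIP (70.9%).

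UVC, UVA and iCLIP peaks lay on control peaks more often on MALAT1 than over their whole lists, and most of them on YFP peaks. A peak of either control was overlapped by 5 of 20 UVC peaks (25%, interval 8.66 to 49.1), against 1.01% of the whole UVC list. It was overlapped by 13 of 61 UVA peaks (21.3%, interval 11.9 to 33.7), against 1.04%, and by 8 of 17 iCLIP peaks (47.1%, interval 22.98 to 72.2), against 0.601%. Among peaks that scored at least as high as the lowest MALAT1 peak the shares over the lists were 3.92%, 1.74% and 0.86%. As above, this bound did not make UVC and UVA scores alike. By control, the UVC peaks met the list without UV at 1 peak (0.621% of the whole UVC list) and the YFP list at 4 (0.611%). For UVA these numbers were 2 (0.597%) and 11 (0.564%). The exact 95% intervals of the 1 UVC peak (0.127 to 24.9%) and the 2 UVA peaks (0.400 to 11.3%) held the shares of their whole lists, so no excess over the list without UV could be read at these numbers. All 8 of the iCLIP peaks met the YFP list (0.335%) and none the list without UV (0.369%). From the control side, 4 of 10 YFP peaks met a UVC peak (interval 12.2 to 73.8, which held the 25.1% of the whole YFP list). A UVA peak was met by 7 (interval 34.8 to 93.3, above the 21.3% of the list) and an iCLIP peak by 6 (interval 26.2 to 87.8, above 9.22%). Of the 4 peaks without UV, 1 met a UVC peak (15.8% of the whole list without UV), 3 a UVA peak (12.6%) and none an iCLIP peak (6.17%). Of the 778 nt in a control peak, 510 (65.6%) lay in at least 1 PTB list, as did 29.8% of the whole RNA. The same share of control nucleotides over the whole lists is not given.

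The control peaks shared no nucleotide of MALAT1, although both lists had their highest cover in part 6, at 16.8% without UV and 18.5% with YFP. The YFP site from nt 4417 to nt 4541 lay between peaks without UV, and 0 of 4 peaks without UV met a YFP peak (3.54% of the whole list without UV), nor did any YFP peak meet one without UV (7.77% of the whole YFP list). The 4 peaks without UV stood together between nt 4313 and nt 4913. The one with the highest score, 29, on chromosome 11 from 65270091 to 65270145 (nt 4859 to 4913), lay on the UVC peak with the second highest score on the RNA, 657, from 65270098 to 65270182 (nt 4866 to 4950). UVA peaks at this place scored up to 882, and the iCLIP list had no peak there. The peak from 65269882 to 65269927, with a score of 22, met a UVA peak and no UVC peak, and the peak from 65269953 to 65269993, with a score of 15, met the same UVA site by its first nucleotide. The peak from 65269545 to 65269590, also with a score of 15, met no other list.

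The 8 YFP sites were spread from nt 3102 to nt 8339. The YFP peak with the highest score, 330, was also the widest on the RNA in any list, 144 nt, on chromosome 11 from 65273428 to 65273571 (nt 8196 to 8339). It began inside the last UVC site and ran past the last peaks of all 3 PTB lists, which ended at nt 8209 for UVC, 8243 for UVA and 8267 for iCLIP. Next came the YFP peak from 65272374 to 65272459 (nt 7142 to 7227), with a score of 50, which met all 3 PTB lists. The YFP peak from 65272117 to 65272164 (nt 6885 to 6932) scored 29 and met the UVA and iCLIP lists. So did the YFP sites from 65271593 to 65271676 (nt 6361 to 6444) and from 65268334 to 65268400 (nt 3102 to 3168), with top scores of 25 and 18. Those 3 YFP places had no peak of PTB crosslinked with UVC. Of the other YFP sites, the one from 65269649 to 65269773 (nt 4417 to 4541, top score 22) met UVC and UVA sites, and the one from 65270247 to 65270275 (nt 5015 to 5043, score 15) met a UVC site only. The 7 nt from 65270215 to 65270221 (nt 4983 to 4989, score 16) met none.

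Without the peaks that lay on a control peak, MALAT1 kept 15 UVC, 48 UVA and 9 iCLIP peaks. The iCLIP number therefore depended most on whether control positions were kept, with 9 peaks beside 17. All 9 of these iCLIP peaks met a UVA peak that lay on no control (interval 66.4 to 100). In this setting 25.6% of the whole iCLIP list did so. The only iCLIP peak on MALAT1 that met no UVA peak lay on a YFP peak, so it was among those left out.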

How the data were processed

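The labels assign 8 samples to 4 groups of 2, each with 1 pooled peak list, and the series text describes the iCLIP list as re-derived from an earlier study by the submitters with the same methods. The submitters' processing notes name hg19, dm3 and Bowtie 1.1.2, without roles. How peaks were called and filtered is not given in the sources used here, and depth per sample is unknown. Peaks were deposited with a p-value of 14 decimals, and the deposited score was 10 times its negative log10, rounded down, in 33 of the 35 MALAT1 peaks with a printed p-value above 0. The 2 peaks with a score and p-value of 0 were taken as lying at the limit of 1000.

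Starts were written 1-based. Peaks with at most 20 nt between them were merged, overlap meant at least 1 nt on the same strand, and intervals are exact (Clopper-Pearson). The overlap function was tested on simulated data and gave the same counts as bedtools 2.31.1 in 20 of 20 ordered pairs of lists. Computation used Python 3.11.15 with scipy 1.17.1, pandas 2.3.3 and numpy 2.4.6, and matplotlib 3.10.9 for plots. The rule for named sites took UVC sites in all 3 PTB lists, the 3 peaks with the highest score in each list and control sites that met a PTB list; sites found in 1 list only, the iCLIP peak that met no UVA peak and the control peaks that met no PTB list were named after their values were seen. MALAT1 and its interval, the lists and the site rule were chosen with earlier results of these data known. No hg19 genome or annotation was used, so site sequences, pyrimidine content and a comparison with NEAT1 by its coordinates are not analysed here. For the same reason the genes in the 3 windows most like MALAT1 were not named, and whether any lies in NEAT1 was not checked.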

Additional observations from a re-analysis of the deposited data

How the results depend on the processing

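Of 116 alternative values, 97 were close to the reported value and 19 were not. Some of the 97 could not have differed. Among them were 14 values with identical intervals counted once, 9 with strand ignored and 5 with the interval widened by 1 kb. MALAT1 had no identical intervals within a list, no minus-strand peak and no plus-strand peak within 10 kb. Limiting UVC, UVA and iCLIP to scores at or above their medians also removed none of their MALAT1 peaks. Close meant within 1.5 times for a count, within the exact 95% interval for a share of peaks or of nucleotides, and an overlapping stretch for the most covered part. Merging changed the number of UVA intervals from 61 peaks to 37, 31 or 24 sites at 0, 20 or 50 nt, and that of iCLIP from 17 to 10 at 50 nt. Limiting lists to scores at or above their medians left 2 of 4 peaks without UV and moved the part of the RNA most covered by YFP to nt 7838 onward. Leaving out peaks on a control peak, an alternative added after seeing the data, left 9 iCLIP peaks. It put 100% of them in the UVA list, beside 25.6% of the whole iCLIP list in this setting. With the midpoint within 50 nt of the other list, 95% of UVC peaks and 100% of iCLIP peaks met UVA, and 55.7% of UVA peaks met iCLIP. This rule is loose on MALAT1, where the median gap between UVA sites was 99.5 nt. Only 17.6% of iCLIP peaks met a control that covered at least 50% of their length. The other 8 shares also fell under this rule but stayed within their intervals. UVC peaks in UVA fell from 70% to 50%, and UVC peaks in iCLIP from 40% to 25%. For iCLIP peaks the share in UVA fell from 94.1% to 76.5%, and that in UVC from 47.1% to 29.4%. Shares of the whole lists under the midpoint and 50% rules are not given, so these values have no background beside them. Widening peaks by 25 nt gave shared nucleotides, as a percentage of those in either list, of 31.1 (UVC and UVA), 27.7 (UVC and iCLIP) and 37.8 (UVA and iCLIP), and 677 nt in all 3 PTB lists, beside 23.3, 17.2, 29.6 and 226. With 5 parts in place of 10, the most covered part began at nt 5226 for UVC and 6967 for YFP. Shifted windows left 1 with at least as many YFP sites. The cause of these changes was not tested beyond what each setting itself removes or widens. No paired analysis was possible because each group is 1 pooled list without replicate columns, and for the same reason no replicate could be left out. Sequence and NEAT1 alternatives were not run, for want of an hg19 genome and annotation here. Few peaks per list, and unknown depth, limit every share on MALAT1.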
